A study of Homo sapiens with 8 samples.

Results

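The regions described here are the γH2AX-enriched regions of chromosome 17 that lie around the centromere, taken from 3 deposited peak lists by 1 rule: the midpoint of a region had to fall from 15 Mb to below 30 Mb in the hg19 build. The rule kept 118 of 9709 regions in untreated cells, 234 of 25671 in cisplatin-treated cells and 191 of 17789 in Pt-ttpy-treated cells, together 543 of 53169. The rule used position only, and none of the peak caller's values. It divided the window at 21 Mb into a distal section, named for the duplications of band 17p11, and the flanks of the centromere.

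Chromatin of A2780, a human ovarian carcinoma cell line, had been sonicated to 200 to 700 bp, precipitated with an antibody against γH2AX and sequenced as single reads of 50 bases. The 8 samples formed 4 groups of 2. They were untreated cells, cells given cisplatin at its IC80 for 96 hours, cells given Pt-ttpy at its IC80 for 96 hours, and input chromatin of untreated cells taken without precipitation. The sources used here do not state the concentrations behind the IC80 doses. The labels tie both samples of a precipitated group to the same list, so each condition had 1 value without a replicate, no difference between conditions could be tested, and the spread between samples is unknown. The read depth behind the lists is also unknown. All samples came from 1 cell line, whose copy number on chromosome 17 was not analysed here.

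γH2AX is the phosphorylated form of the histone variant H2AX, laid down by damage-signalling kinases over the chromatin around DNA breaks and stalled replication forks. Cisplatin forms platinum crosslinks between neighbouring purines and is used against ovarian cancer. Pt-ttpy is a platinum complex with a tolylterpyridine ligand that binds G-quadruplexes, the stacked structures of guanine-rich DNA. Band 17p11 is known for large low-copy repeats that recombine with one another, which causes the recurrent deletion of Smith-Magenis syndrome and the reciprocal duplication of Potocki-Lupski syndrome. It reaches the centromere, whose core is built of alpha satellite repeats and was left unsequenced in builds of the age of hg19. Short reads from repeated sequence cannot be placed with certainty, so counts at repeats depend on how the aligner treats them.

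Several properties of the lists bear on every value below. The fold enrichment of a region is the authors' ratio over the background of the peak caller, and in each list every distinct fold went with 1 p-value. The folds lay on ladders with steps of 0.301 (untreated), 0.173 (cisplatin) and 0.129 (Pt-ttpy), so they carry no correction for the local background, copy number or repeats. Folds of different lists were printed side by side at named sites and correlated by rank across sites. Their sizes are not comparable between lists. The untreated list was also less regular than the others: in the window its 118 regions carried 106 peak numbers, because 10 numbers stood on 22 pieces, and 32 summits lay outside their own piece. A further 45 numbers were missing between retained members of the window, 11 of them between members of different sections. Up to 56 could have belonged to the window, so untreated counts are given below with and without the missing numbers where this changes the comparison.

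Most regions in the window lay close to the unsequenced centromere. The longest stretch without a region in any list ran over chr17:22262614-25263092, or 3.00 Mb, and divided the members above 21 Mb into a short-arm flank of 1.26 Mb and a long-arm flank of 4.74 Mb. In the distal section of 6 Mb there were 3 regions without drug, 37 with cisplatin and 25 with Pt-ttpy. In the same order, the short-arm flank counted 55, 146 and 113 regions and the long-arm flank 60, 51 and 53. Per Mb this came to 0.500, 6.17 and 4.17 regions in the distal section, 43.6, 116 and 89.5 in the short-arm flank, and 12.7, 10.8 and 11.2 in the long-arm flank. The section named for the 17p11 duplications therefore had the fewest regions per Mb of the 3 in every list, and most short-arm regions lay above its border. The long-arm density came mostly from 1 block of 45.5 kb, outside which that flank held 0, 7 and 1 regions. The order also rests on the border at 21 Mb. With the border at 22 Mb the distal section held 49, 170 and 129 regions. Whether the sequence under a region is duplicated was not tested, since no genome of this build was used here.

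**Figure D1:**
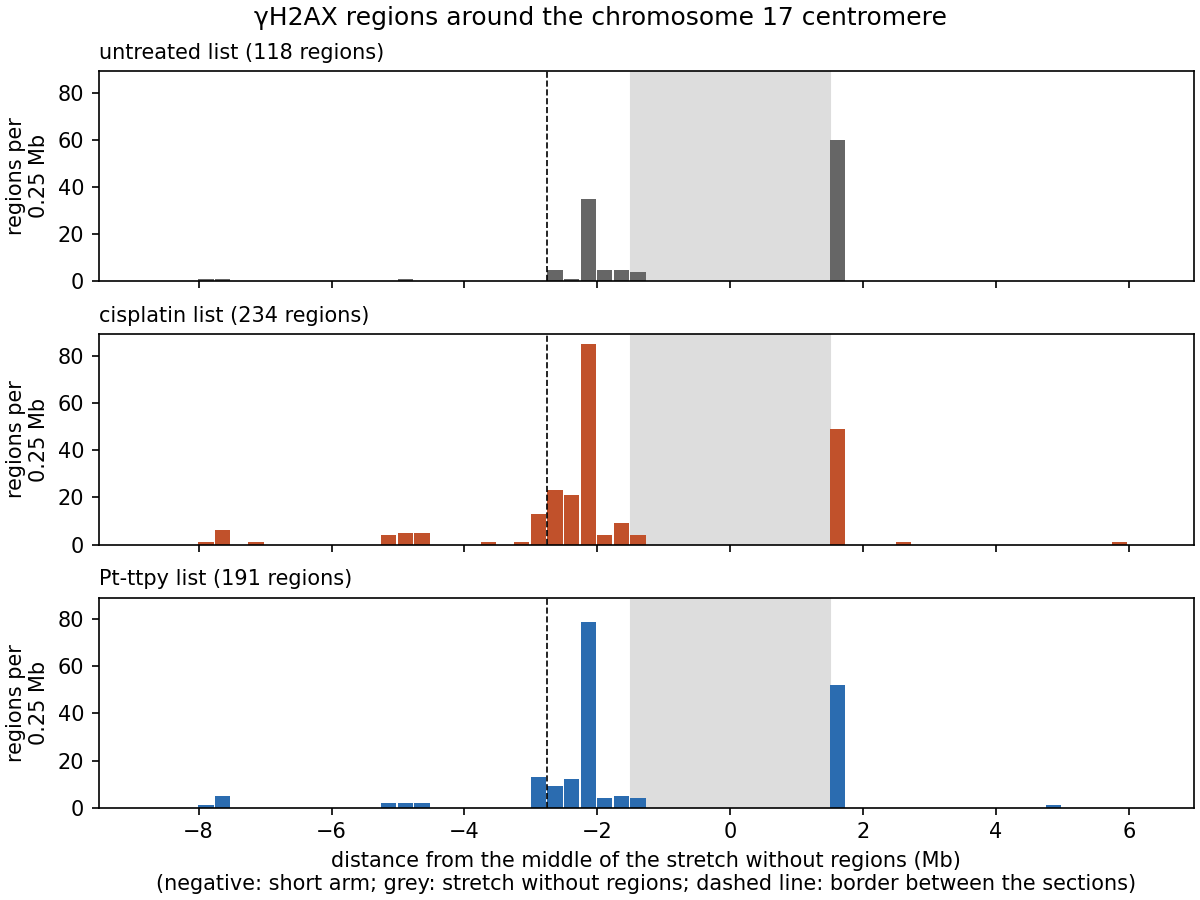
Number of γH2AX regions (vertical axes) along the window, in bins of 0.25 Mb, for the untreated, cisplatin and Pt-ttpy lists; the horizontal axis gives the distance in Mb from the middle of the 3.00 Mb stretch without regions, which is shaded, the bin at its short-arm edge reaches into it, and the dashed line is the border between the distal section and the short-arm flank. Most regions stand between the dashed line and the shading or in the first bin past the shading, while the distal section to the left of the line holds 3, 37 and 25 regions.

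The members made up a large share of what the lists hold on chromosome 17. Of the 243 regions that the untreated list placed on the chromosome they were 48.6%. The share was 46.0% of 509 for cisplatin and 51.1% of 374 for Pt-ttpy. Of the whole lists they were 1.22%, 0.912% and 1.07%. They covered 52.9 kb in untreated, 99.9 kb in cisplatin-treated and 89.5 kb in Pt-ttpy-treated cells. The cisplatin list thus held 1.98 regions in the window for each untreated one and the Pt-ttpy list 1.62, against 2.64 and 1.83 over all chromosomes. With the 45 missing untreated numbers added, the ratios in the window were 1.44 and 1.17. With all 56 that could belong there, they were 1.34 and 1.10. The ratios over all chromosomes were not adjusted for missing numbers.

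In the distal section the treated lists held many regions and the untreated list few. The cisplatin list held 12.3 regions there for each untreated region and the Pt-ttpy list 8.33. This ratio rests on 3 untreated regions and on numbers missing from that list. With the 6 numbers missing between retained regions of the section added, the ratios were 4.11 and 2.78. With all 19 numbers that could belong there, they were 1.68 and 1.14, close to or below those of the short-arm flank counted the same way (1.59 and 1.23), so the sections cannot be ranked by this ratio. The same 11 numbers, missing between these sections, are counted in both, so the sets of ratios cannot hold together. Among the regions with a -log10 q of at least 5, the section counted 2 without drug, 16 with cisplatin and 12 with Pt-ttpy. Fewer treated regions passed that limit than missed it: 43.2% passed for cisplatin, where the whole list had 46.9%, and 48.0% for Pt-ttpy, where it had 57.6%. Of the 37 cisplatin regions 8 had the smallest width in that list, 101 bp, and so did 5 of the 25 Pt-ttpy regions.

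All 3 untreated regions of the distal section were also covered in both treated lists. The strongest, chr17:15886986-15887105, was 120 bp wide with a fold of 10.8. Its counterparts were chr17:15886987-15887108 with a fold of 6.06 after cisplatin and chr17:15886989-15887098 with a fold of 6.37 after Pt-ttpy. No other region of any list lay within 50 kb of this narrow site. The second untreated region, chr17:16066665-16066859, had a fold of 7.22. It was met by chr17:16066671-16066965, the strongest distal cisplatin region, with a fold of 6.40, and by chr17:16066712-16066881, the strongest distal Pt-ttpy region, with a fold of 6.49. The last untreated region, chr17:18967543-18967614, was only 72 bp wide, with a fold of 3.31 and a -log10 q of 1.52, so it lay near the weak end of its list. It was met by chr17:18967549-18967686 at a fold of 4.15 after cisplatin and by chr17:18967559-18967665 at a fold of 3.65 after Pt-ttpy.

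Around the second and the last of these sites, the treated lists held further regions that the untreated list did not. Regions of the 3 lists separated by at most 50 kb were joined into clusters. The cluster at chr17:16065205-16112701 held 1 untreated, 6 cisplatin and 5 Pt-ttpy regions. Among them was chr17:16067116-16067273, a Pt-ttpy region with a fold of 5.46, 1 of the 5 strongest Pt-ttpy members of the window to overlap no untreated region. The cluster at chr17:18964998-19010921 held 1 untreated, 6 cisplatin and 2 Pt-ttpy regions. A pair of clusters, at chr17:18513750-18555667 and chr17:19067376-19115796, held no untreated region and in each case 4 cisplatin and 2 Pt-ttpy regions, all with folds at or below 4.15. In each of these 2 clusters, 1 cisplatin region out of 4 shared bases with the Pt-ttpy list. The share was 51.4% in the distal section and 47.8% in the whole cisplatin list, and 4 regions are too few to be set apart from it. Cisplatin regions also stood alone at chr17:16677319-16677448, chr17:20152854-20152954 and chr17:20573547-20573647, with folds of 3.29, 3.12 and 2.94. Between these sites lay long stretches empty in all 3 lists, the longest of them 1.84 Mb over chr17:16677449-18513749 and 1.04 Mb over chr17:19115797-20152853.

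The densest distal cluster was present in both treated lists and absent from the untreated one. It spanned 16.9 kb at chr17:20767750-20784698, with 0 regions in the untreated list and 13 in each treated list, which covered 22.6% of its length after cisplatin and 14.5% after Pt-ttpy. The drugs shared most of these sites: 10 of the 13 regions marked after cisplatin met a region of the other drug, and 12 of the 13 marked after Pt-ttpy did. Over the whole lists these shares were 47.8% and 69.9%. The strongest cisplatin region, chr17:20784192-20784551, had a fold of 5.19. The strongest Pt-ttpy regions had a fold of 4.43, and 1 of them, chr17:20784215-20784698, lay on the same site and was with 484 bp the widest distal Pt-ttpy region. The widest distal cisplatin region, chr17:20781134-20782172, spanned 1039 bp with a fold of 3.81, and the Pt-ttpy list held 2 shorter regions in its place, at chr17:20781148-20781415 and chr17:20781665-20781878. The untreated list had no region between 18967614 and 21231185, and 11 peak numbers were missing over that interval, so an untreated region in the cluster cannot be told apart from one that was left out of the list.

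The short-arm flank held the greatest number of treated regions. It had 2.65 cisplatin and 2.05 Pt-ttpy regions for each untreated one, against 2.64 and 1.83 over all chromosomes. The covered length was 1.99 and 1.76 times that of untreated cells, at 30.2 kb, 60.1 kb and 53.0 kb, against 2.62 and 2.13 times over all chromosomes. With the 26 missing numbers added, the ratios of counts were 1.80 and 1.40, and with all 37 that could belong there 1.59 and 1.23. The ratios of the whole lists were not adjusted in this way and are not set beside these. Most regions fell into 5 clusters of at least 10 regions in some list, and 3 smaller clusters held the other 6 untreated, 6 cisplatin and 5 Pt-ttpy regions. The 5 differed in how far the untreated list took part.

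The first of them, 39.9 kb at chr17:21211975-21251896, held 5 untreated, 23 cisplatin and 10 Pt-ttpy regions. Its strongest cisplatin region, chr17:21231866-21232814, had a fold of 6.75. It lay on a Pt-ttpy region of 1707 bp, chr17:21231135-21232841, with a fold of 5.46, and on the untreated region chr17:21231877-21232680 with a fold of 5.11. The next, 47.2 kb at chr17:21306256-21353474, counted 1 region without drug, 21 with cisplatin and 11 with Pt-ttpy. It was the thinnest of the 5, with 0.188%, 8.10% and 4.19% of its length covered. The clusters held 2.3 and 1.91 cisplatin regions for each Pt-ttpy region, against 1.44 over all chromosomes.

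The largest cluster of the window spanned 59.4 kb at chr17:21506990-21566425 and held 26 untreated, 63 cisplatin and 56 Pt-ttpy regions, which covered 8.73%, 30.2% and 25.6% of it. The lists were spread differently along it. In the first 30 kb the counts were 3 without drug, 27 with cisplatin and 31 with Pt-ttpy, and in the rest 23, 36 and 25. In the first 30 kb the untreated regions covered 0.270 kb, the cisplatin regions 6.29 kb and the Pt-ttpy regions 6.12 kb. The rest was covered over 4.92, 11.6 and 9.11 kb. The division at 30 kb was chosen after the values were seen. Folds were also higher in the rest: the highest untreated fold was 4.21 in the first stretch and 8.42 in the other, the highest cisplatin folds were 5.19 and 8.14, and the highest Pt-ttpy folds 5.20 and 6.75.

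Single sites near the end of that cluster show how the lists divide the same ground. The strongest untreated signal there, with a fold of 8.42, stood on a pair of pieces at chr17:21565350-21565690 and chr17:21565916-21566422. The cisplatin list had 1 region of 1139 bp over both, chr17:21565287-21566425, with a fold of 7.10, while the Pt-ttpy list had 2, at chr17:21565294-21565695 and chr17:21565940-21566411, with folds of 6.49 and 6.24. The strongest treated regions lay just beside it, at chr17:21563475-21564380 with a fold of 8.14 after cisplatin and at chr17:21563571-21564402 with a fold of 6.75 after Pt-ttpy. The untreated region between those coordinates, chr17:21563731-21564388, had a fold of 6.92. Counts of regions alone therefore do not follow the length covered, since a stretch marked in all 3 lists could be 1, 2 or more regions.

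The fourth cluster, 18.2 kb at chr17:21667033-21685259, held 9 untreated, 21 cisplatin and 23 Pt-ttpy regions. Covered length separated the lists further than the counts did: 6.60% in untreated cells, 44.0% after cisplatin and 42.3% after Pt-ttpy. Here 20 of the 21 cisplatin regions met a Pt-ttpy region and 22 of the 23 Pt-ttpy regions a cisplatin one, against 47.8% and 69.9% of the whole lists.

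**Figure D2:**
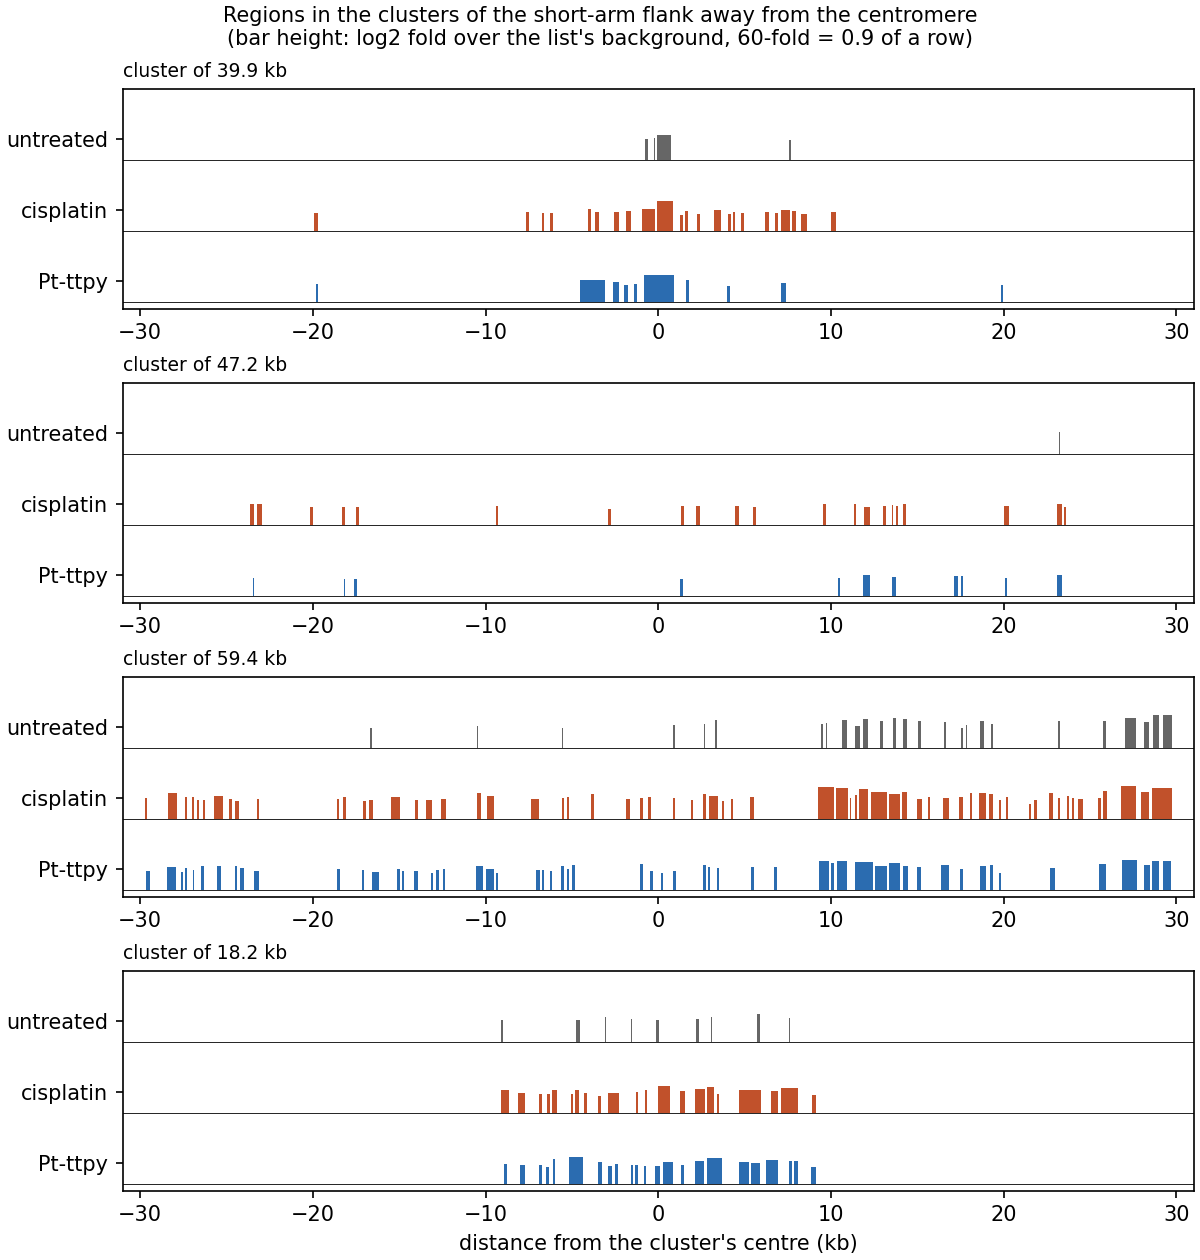
Regions of the untreated, cisplatin and Pt-ttpy lists in 4 clusters of the short-arm flank; the horizontal axis gives the distance in kb from the centre of each cluster, each bar is 1 region drawn to scale, and its height is the log2 fold within its own list, which is not comparable between lists. The untreated row of the 59.4 kb cluster is sparse on the left, where the first 30 kb hold 3 regions against 27 and 31, and fuller on the right, where it has 23 against 36 and 25.

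Nearer the centromere the 3 lists came to hold the same ground. At chr17:21902219-21907757, a block of 5.54 kb whose regions lay within 1 kb of one another, the untreated list had 5 regions and each treated list 3. They covered 85.4% of the block in untreated cells, 95.3% after cisplatin and 94.9% after Pt-ttpy. The untreated region chr17:21902223-21903500 and the cisplatin region chr17:21902223-21903889 began at the same base, each with a fold of 13.5. The Pt-ttpy region there, chr17:21902219-21903901, had a fold of 10.1. Farther in, at chr17:22020682-22020811, an untreated region of 130 bp with a fold of 20.1 stood alone. The cisplatin region chr17:22020679-22020812 had a fold of 14.2 and the Pt-ttpy region chr17:22020686-22020813 a fold of 10.8. No other region of any list lay within 50 kb. The block and this site were chosen for mention after their values were seen.

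The last short-arm sequence before the empty stretch carried the strongest and widest regions of the window in every list. The cluster at chr17:22207899-22262614 counted 8, 12 and 8 regions (untreated, cisplatin, Pt-ttpy), and its inner end, chr17:22244551-22262614, was a nearly continuous block of 18.1 kb. The block held 6 regions in each list, which covered 95.4% of it in untreated cells, 96.1% after cisplatin and 95.9% after Pt-ttpy. Untreated folds there ranged from 28.0 to 58.9, cisplatin folds from 24.6 to 34.3 and Pt-ttpy folds from 20.1 to 26.0. The widest region was chr17:22247779-22258777 in untreated cells, with 10999 bp and a fold of 58.9, the 27th of 9709 by q. Its counterpart after cisplatin, chr17:22247768-22258800, was 11033 bp wide with a fold of 34.3, the 40th of 25671. After Pt-ttpy it was chr17:22247765-22258776, 11012 bp wide with a fold of 26.0, which shared the highest q of that list with the others of its 36 top regions. Ranks from lists of different length show no change between conditions.

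The gaps that parted the 6 regions of this block were also much alike. They measured 170, 141, 157, 202 and 134 bp in the untreated list, 112, 130, 137, 183 and 134 bp in the cisplatin list, and 120, 127, 159, 174 and 139 bp in the Pt-ttpy list. In all 3 lists a region ended at base 22247637. A pair of untreated pieces, chr17:22260364-22261327 and chr17:22261462-22262612, shared 1 peak number and 1 fold of 41.2. The block was thus present without treatment, with the same number of regions and nearly the same coverage as after either drug.

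The long-arm edge mirrored it less closely. A block of 45.5 kb began at the first base with a region after the empty stretch, chr17:25263092-25308632, and held 60 untreated, 44 cisplatin and 52 Pt-ttpy regions. All 60 untreated regions of the long-arm flank lay in this block, and they carried 50 peak numbers. Here the drug lists had fewer regions than the untreated list yet covered more bases: 22.4 kb or 49.2% of the block in untreated cells, 31.7 kb or 69.6% after cisplatin and 32.5 kb or 71.4% after Pt-ttpy. Over the whole flank there were 0.850 cisplatin and 0.883 Pt-ttpy regions for each untreated region, and 1.46 covered bases for each untreated base in both. Counting each untreated peak number once left 50 untreated against 51 and 53 treated regions. Joining the pieces of each number gave 24.0 kb of untreated regions and 1.37 and 1.36 treated bases for each untreated base, an alternative added after seeing the data. In this flank 18 untreated pieces belonged to 8 numbers, 20 summits lay outside their piece and the narrowest piece was 3 bp wide, so the untreated covered length may be cut short. Merging regions within 1 kb also turned the order of counts, to 4 untreated, 10 cisplatin and 3 Pt-ttpy.

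The strongest long-arm regions lay at its inner edge. In the untreated list chr17:25265856-25266669 and chr17:25266795-25267092 carried the highest fold of the flank, 28.3. The treated lists had 1 region over both pieces. It was chr17:25265857-25267091 after cisplatin, with a fold of 20.6, and chr17:25265836-25267090 after Pt-ttpy, with a fold of 18.5. The next regions towards the empty stretch, chr17:25263646-25265681 after cisplatin and chr17:25263643-25265673 after Pt-ttpy, had folds of 19.2 and 16.6. The untreated list held 2 pieces over that site, chr17:25263650-25264515 and chr17:25264746-25265657, with a fold of 25.3. The widest treated regions of the flank were chr17:25272172-25275172 after cisplatin, with 3001 bp and a fold of 8.83, and chr17:25272182-25274644 after Pt-ttpy, with 2463 bp and a fold of 8.82. Untreated regions on the same ground were shorter, among them chr17:25272351-25273408 with a fold of 7.52 and chr17:25273782-25274227 with a fold of 7.22. The widest untreated region, chr17:25298659-25300103, spanned 1445 bp with a fold of 10.5, and was met by chr17:25298451-25300204 after cisplatin with a fold of 10.2 and by chr17:25298457-25300179 after Pt-ttpy with a fold of 9.08.

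**Figure D3:**
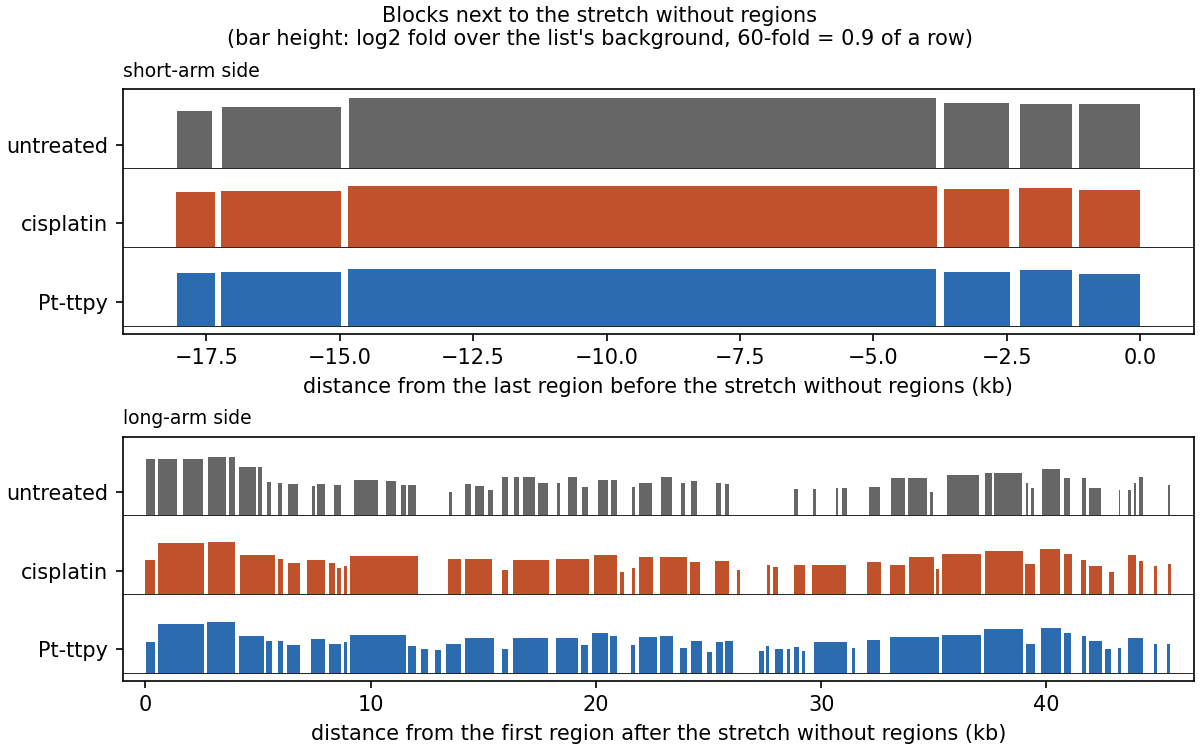
Regions of the 3 lists in the blocks on either side of the 3.00 Mb stretch without regions; the horizontal axes give the distance in kb from the edge of the stretch, and the height of a bar gives the log2 fold of the region within its own list, which is not comparable between lists. The short-arm block is covered at 95.4% to 96.1% in every list with 6 regions each, while the long-arm block is covered at 49.2% in the untreated and at 69.6% and 71.4% in the treated lists.

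Beyond 25308632 the long arm was almost empty. The cisplatin list had 7 further regions, with folds from 2.94 to 3.81 and widths from 101 to 311 bp, and the Pt-ttpy list had 1, chr17:28709416-28709516, with a fold of 2.75. The untreated list had none, though 9 of its peak numbers were missing between its last member and its next region outside the window. The longest empty stretch here was 2.22 Mb over chr17:26492205-28709415.

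Nearly all regions kept in the untreated list overlapped a treated region, here as elsewhere. The shares below, in the window and over all chromosomes, are of kept regions only. Whether the 45 to 56 numbers missing from the window overlapped a treated region is unknown. Sharing at least 1 bp, 114 of 118 untreated members (96.6%, exact binomial 95% interval 91.5 to 99.1%) overlapped a cisplatin region, against 96.1% over all chromosomes. For Pt-ttpy it was 110 of 118 (93.2%, interval 87.1 to 97.0%), against 95.1%. These intervals, like the others below, cover counting error only and do not speak of replicates. Only 2 untreated regions overlapped neither treated list. They were chr17:21673056-21673138, with 83 bp and a fold of 5.11, and chr17:21554508-21554568, with 61 bp and a fold of 4.51.

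In the other direction, most treated members lay off the untreated regions. Of 234 cisplatin members 86 (36.8%, interval 30.6 to 43.3%) overlapped an untreated region, against 27.3% of the whole list. Of 191 Pt-ttpy members 84 (44.0%, interval 36.8 to 51.3%) did so, against 39.5% of the whole list. The intervals treat neighbouring regions as independent, which members of a cluster are not, and are too narrow for that reason. The drugs shared more with each other: 157 of 234 cisplatin members (67.1%, interval 60.7 to 73.1%) overlapped a Pt-ttpy region, against 47.8%, and 163 of 191 Pt-ttpy members (85.3%, interval 79.5 to 90.0%) overlapped a cisplatin region, against 69.9%. Regions stand densely in the flanks, and the part of that density in these shares was not tested.

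By section, this overlap took different values. In the distal section 3 of 37 cisplatin (8.11%, interval 1.70 to 21.9%) and 3 of 25 Pt-ttpy regions (12.0%, interval 2.55 to 31.2%) overlapped an untreated one. In the short-arm flank 47 of 146 (32.2%) and 41 of 113 (36.3%) did. In the long-arm flank 36 of 51 (70.6%) and 40 of 53 (75.5%) did. These shares depended on the lengths of the lists. The next values use the top 9709 regions of each, in the order distal section, short-arm flank, long-arm flank. Cisplatin on untreated was then 25%, 62.3% and 87.8%, and Pt-ttpy on untreated 20%, 58.5% and 81.6%. The share of Pt-ttpy regions on a cisplatin region was 84.0%, 85.8% and 84.9% in the distal section, the short-arm and the long-arm flank, but 50%, 76.9% and 87.8% with the top 9709 regions of each list. In the reverse direction it was 51.4%, 65.8% and 82.4%, but 41.7%, 77.0% and 100% with the top 9709 regions of each list. The differences between sections were not tested, since members of a cluster are not independent.

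Joining all regions that shared a base gave 252 loci. All 3 lists held 77 of them, 68 were held by both drugs without the untreated list, 75 by cisplatin alone, 26 by Pt-ttpy alone and 6 by the untreated list alone or with 1 drug. In the distal section loci of all 3 lists were few, 3 of 41, and loci of both drugs or of cisplatin alone made up 16 and 18. In the short-arm flank 41 of 156 loci were in all 3 lists, 47 in both treated lists and 48 in the cisplatin list alone. In the long-arm flank 33 of 55 were in all 3 lists and 5 in both treated lists. Loci were joined in the window only, so no share over all chromosomes stands beside these counts. Counted as regions, 26.5% of the whole cisplatin list overlapped both other lists, 21.2% the other drug's only and 51.4% neither. For the whole Pt-ttpy list these shares were 38.7%, 31.2% and 29.3%.

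**Figure D4:**
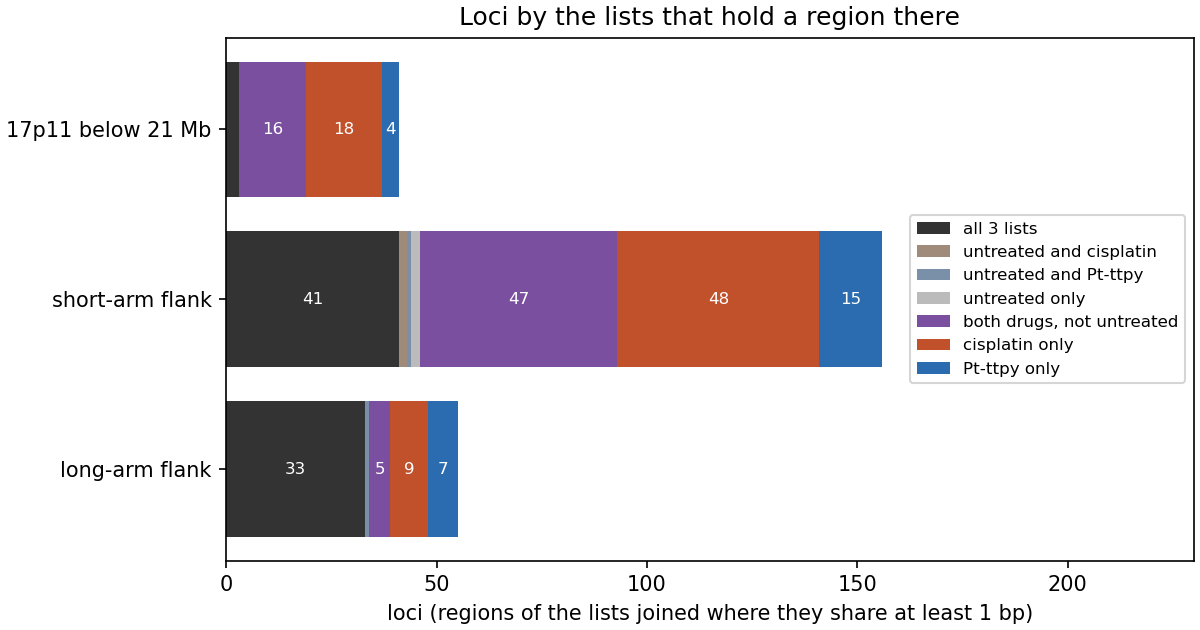
Number of loci (horizontal axis) in each section of the window by the lists that hold a region there; a locus is a run of regions of any list that share at least 1 bp. Loci of all 3 lists are 3 of 41 in the distal section, 41 of 156 in the short-arm flank and 33 of 55 in the long-arm flank. Loci were not joined outside the window.

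Among regions held by 1 drug alone, the highest fold was 5.19 in the cisplatin list and 4.81 in the Pt-ttpy list. The cisplatin list had 75 members that overlapped neither other list, 32.1% of its members against 51.4% of that list, and the Pt-ttpy list had 26, or 13.6% against 29.3%. The strongest of the cisplatin regions were chr17:21554741-21554863 with a fold of 5.19 and chr17:21532822-21532983 with a fold of 5.02, both in the largest short-arm cluster. The strongest of the Pt-ttpy regions were chr17:21531709-21531857 with a fold of 4.81 and chr17:21543419-21543564 with a fold of 4.43, in the same cluster. Among regions that lay off the untreated list but could lie on the other drug's, the strongest were chr17:25290679-25290804 after cisplatin with a fold of 5.37 and chr17:25271903-25272051 after Pt-ttpy with a fold of 5.85, both in the long-arm block. The median fold was 6.23 for cisplatin members on an untreated region and 3.64 for those off it, and for Pt-ttpy it was 6.24 and 3.65. The median width was 545 bp on and 156 bp off for cisplatin, and 512 and 158 bp for Pt-ttpy. A like contrast stood over all chromosomes. There the median cisplatin fold was 6.06 on both other lists, 3.81 on the other drug's only and 3.29 on neither, with widths of 366, 187 and 139 bp. For Pt-ttpy the folds were 5.72, 3.78 and 3.26, and the widths 345, 172 and 137 bp.

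The treated regions off the untreated list stood at different distances from it. In the distal section the nearest untreated region was a median of 448 kb away for 34 cisplatin and 450 kb for 22 Pt-ttpy regions. In each list 13 of these regions stood in 1 cluster, chr17:20767750-20784698, so both medians depend on its place. In the short-arm flank it was 1.91 kb for 99 cisplatin and 1.56 kb for 72 Pt-ttpy regions, and in the long-arm flank 1.08 kb for 15 and 0.241 kb for 13. The numbers missing from the untreated list could make these distances shorter.

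Members were wider than regions of the whole lists, with medians of 220 bp in untreated, 200 bp in cisplatin-treated and 204 bp in Pt-ttpy-treated cells against 164, 169 and 185 bp. The sections pulled in different directions. Distal regions were narrow, with medians of 120, 128 and 120 bp in that order. Short-arm medians were 175, 203 and 197 bp, and long-arm medians 270, 411 and 345 bp. Long-arm regions wider than 500 bp made up 23.3%, 45.1% and 41.5% of the lists there.

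To compare widths locus by locus, 46 loci with exactly 1 region in each list were taken. A locus joins regions in a chain, so its regions need not all share a base. At chr17:21239048-21239626, for example, the untreated and the Pt-ttpy region each met the cisplatin region but not each other. Such loci were kept throughout. The median width over the 46 loci was 190 bp in untreated cells, 371 bp after cisplatin and 363 bp after Pt-ttpy. The untreated region was the narrowest of the 3 at 39 of the 46 loci and the widest at none. Cisplatin had the widest region at 28 and Pt-ttpy at 17, and at 1 locus they tied. At 8 of the loci the untreated summit lay outside its piece, at 4 the untreated number stood on several pieces, and at 6 the untreated piece was narrower than 101 bp, the smallest width in the treated lists, so untreated widths may be those of trimmed pieces. Leaving these out, an alternative added after seeing the data, gave 32 loci with medians of 238, 496 and 471 bp, where the untreated region was the narrowest at 27 and the widest at none. Trimming that leaves no such sign was not tested. The median spread of the 3 starts was 44.5 bp and that of the 3 ends 51 bp, both short beside the sonicated fragments. Sites that were strong in 1 list were strong in the others: over the 46 loci Spearman's rho of the folds was 0.809 between untreated and cisplatin, 0.841 between untreated and Pt-ttpy and 0.930 between the drugs. These correlations are across sites that share the cell line, its copy number and the peak caller, and are given as a description. They include the irregular untreated regions named above, whose fold can belong to a summit outside the piece. How far a list's depth sets the width of its regions was not tested, since depth is unknown.

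**Figure D5:**
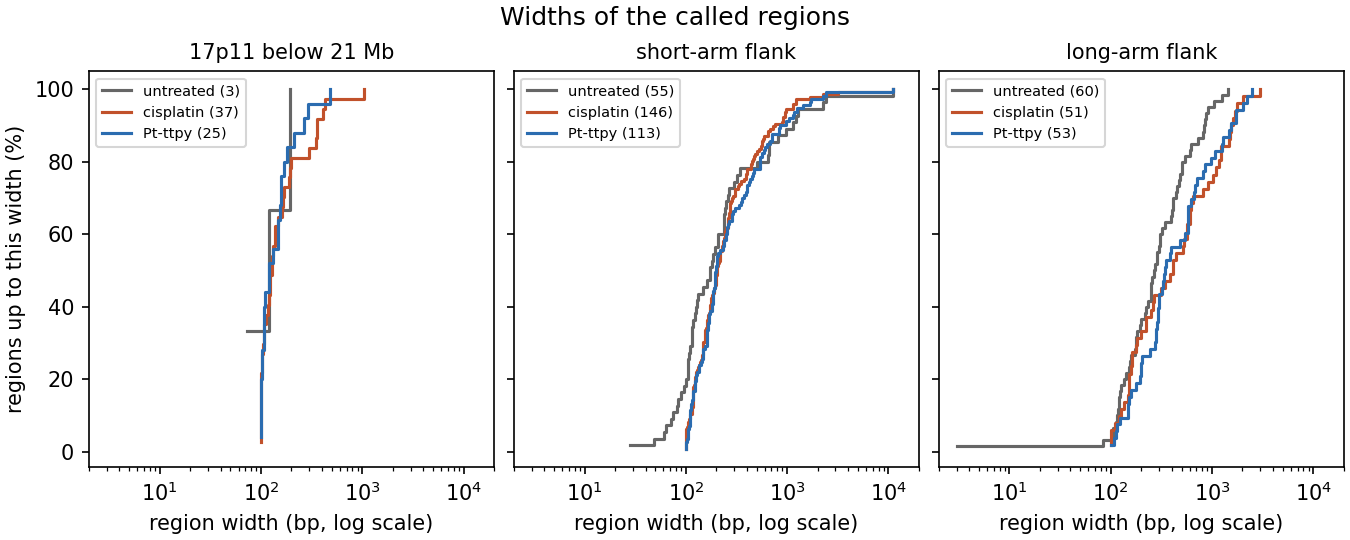
Cumulative share of regions in percent (vertical axis) up to a given width in bp (horizontal log axis), with 1 panel for each section and 1 line for each list, and the number of regions in brackets. The lines cross the middle of the axis at medians of 120, 128 and 120 bp (untreated, cisplatin, Pt-ttpy) in the distal section, and at 270, 411 and 345 bp in the long-arm flank, where the untreated line runs to the left.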

How the data were processed

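Per the submitters' processing notes, BWA 0.7.5, MACS2 2.1.0 and hg19 were used; the sources used here do not give the control of each list, the calling settings or any pooling. For each region the authors deposited a fold enrichment ratio, -log10 p-values and q-values, a score, which is the -log10 q times 10 without its decimals, and a summit. Input values were not analysed here.

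With pandas 2.3.3, numpy 2.4.6 and scipy 1.17.1 under Python 3.11.15 (figures with matplotlib 3.10.9), regions were placed by midpoint and counted, and overlaps of at least 1 bp were found. Regions within 50 kb were joined into clusters, and those within 1 kb into blocks. The overlap and merging code was tested on simulated regions. Intervals are exact binomial at 95%. No test between conditions was made.

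Regions to name were taken from the 3 strongest by q and the widest of each list in each section, the 5 strongest off the untreated list and off both other lists, untreated regions off both drugs, and clusters of at least 10 regions. Counterparts in the other lists, smaller clusters and empty stretches were added after their values were seen. Members and rules were chosen with earlier results of these data known.

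Alternatives were merging within 1 kb, a -log10 q of at least 5, the top 9709 regions of each list, summits in place of midpoints, other borders, other overlap limits, other cluster distances, and joined or missing untreated peak numbers; leaving out irregular untreated regions, and joining pieces for covered length, were added after seeing the data. No genes or sequences are given, because the reference tables used the GRCh38 build and no genome of the lists' build was used here.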

Additional observations from a re-analysis of the deposited data

How the results depend on the processing

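Counts, widths and overlaps moved with several choices, and some orders turned. Merging within 1 kb turned the long-arm order of untreated and cisplatin in count and in median width, equal list lengths turned the short-arm order of cisplatin and Pt-ttpy counts, and a border at 22 Mb put more regions in the distal section than in the short-arm flank. Values are in the order untreated, cisplatin, Pt-ttpy unless named. With the border at 22 Mb the distal section held 49, 170 and 129 regions and the short-arm flank 9, 13 and 9, and at 20 Mb the distal section held 22 cisplatin and 12 Pt-ttpy regions. Adding missing peak numbers gave 9 distal untreated regions. At a -log10 q of at least 5, the cisplatin and Pt-ttpy counts were 16 and 12 in the distal section and 81 and 67 in the short-arm flank, where the Pt-ttpy median width was 355 bp. With the top 9709 regions of each list they were 12 and 10, and 61 and 65. Merging within 1 kb left 25, 39 and 35 short-arm and 4, 10 and 3 long-arm regions, with median widths of 997 bp (cisplatin) and 515 bp (Pt-ttpy) in the short-arm and 12215, 150 and 18250 bp in the long-arm flank. Overlap moved as follows, written as the percent of the first list on the second. With equal list lengths, distal cisplatin on untreated was 25% and Pt-ttpy on cisplatin 50.0%. In the short-arm flank untreated on cisplatin was then 78.2%, cisplatin on untreated 62.3%, cisplatin on Pt-ttpy 77.0%, Pt-ttpy on untreated 58.5% and Pt-ttpy on cisplatin 76.9%. In the long-arm flank cisplatin on untreated was 87.8% and cisplatin on Pt-ttpy 100%. Within 1 kb, short-arm untreated regions matched both drugs at 100%, cisplatin on untreated was 54.1%, cisplatin on Pt-ttpy 90.4%, Pt-ttpy on untreated 60.2% and Pt-ttpy on cisplatin 96.5%. The long-arm values were untreated on cisplatin 100%, cisplatin on untreated 84.3%, Pt-ttpy on untreated 94.3% and Pt-ttpy on cisplatin 98.1%. Requiring 50% of the length gave, in the short-arm flank, cisplatin on untreated 17.8%, cisplatin on Pt-ttpy 52.7%, Pt-ttpy on untreated 22.1% and Pt-ttpy on cisplatin 77.9%. At the stricter q, short-arm Pt-ttpy on untreated was 47.8%, long-arm untreated on cisplatin 100% and cisplatin on Pt-ttpy 95.3%. Of the other values, 31 counts, 15 widths and 4 cluster counts stayed within 1.5 times those reported, and 46 overlaps within the counting interval of the reported share, which is wide in the distal section (untreated on Pt-ttpy went from 100% to 66.7% with equal list lengths). The 4 values of the added alternatives stayed within 1.5 times. The cause of each move was not tested. No paired analysis was possible because each condition had 1 list for both of its samples. Depth and the control of each list are unknown, so counts cannot be corrected for them.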
